A study of Mus musculus with 56 samples.

Results

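Interleukin-6 (IL-6) blockade was compared with an isotype control antibody in the front paws of mice with collagen-induced arthritis (CIA). The comparison holds every library labelled with either treatment, 13 anti-IL-6 and 13 isotype libraries, which are 26 of the 56 libraries in the series. CIA is an autoimmune joint disease provoked in male DBA/1 mice by immunisation with chicken type II collagen, given on day 1 and day 21. Antibody injections into the peritoneum began on day 21 and were given 2 times a week for 5 weeks, and RNA of whole paw homogenate was sequenced on day 91, weeks after the last dose. The anti-IL-6 mice had received the antibody clone MP5-20F3 at 10 mg/kg, and the isotype mice an IgG1 control at 30 mg/kg, so the amount of antibody differed as well. The other groups, 13 mice given the anti-TNF clone XT3.11 at 30 mg/kg, 13 mice given both antibodies at these doses (combination) and 4 untreated mice without CIA, entered the fit to estimate the spread and are shown for a few genes. The labels give no age of the mice and no hour of the day at which paws were taken. Each library is 1 mouse, and a whole paw mixes skin, muscle, bone, joint and blood cells.

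IL-6 is a cytokine that binds Il6ra and then the shared receptor subunit Il6st (gp130), and the complex activates the transcription factor Stat3, which induces its own brake, Socs3. The circadian clock is a loop of transcription factors found in nearly every tissue. Arntl (BMAL1) pairs with Clock or Npas2 and activates genes through a DNA element called the E-box. Among the products are Per and Cry proteins, which repress the pair, and Nr1d1 and Nr1d2 (REV-ERB), which repress Arntl, Npas2 and Nfil3 through ROR elements. The output factors Dbp, Tef and Hlf activate genes through D-boxes, and Nfil3 represses through the same sites.

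Levels are in FPKM, a read density that corrects for transcript length and for sequencing depth, and differences are anti-IL-6 minus isotype on the scale log2(FPKM + 1), which understates changes of low genes. A gene is called where limma's Benjamini-Hochberg adjusted p over 14454 genes is under 0.05. Depth read from the steps of low values was 39.65 to 53.55 M fragments (M for mega) in anti-IL-6 and 40.35 to 50.5 M in isotype libraries. Mouse numbers in the titles run in blocks by group. The library labelled anti-IL-6 replicate 2 carries mouse number 20, inside the block of anti-TNF numbers, and the library labelled anti-TNF replicate 6 carries mouse number 2, inside the anti-IL-6 block. The labels were kept, and counts are also given without both libraries. Anti-IL-6 replicate 13 and isotype replicate 4 had the lowest median correlations with the other libraries, 0.895 and 0.935. Titles also give index numbers, which were cut here into 5 runs. In order, the runs span 39 to 44, 45 to 57, 58 to 70, 71 to 83 and 84 to 96. No label names a run as a batch. Runs 2, 4 and 5 hold both treatments, with 4, 8 and 1 anti-IL-6 libraries against 1, 1 and 5 isotype libraries.

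Limma called 140 of 14454 genes (0.969%), of which 108 were higher (0.747%) and 32 lower (0.221%) in anti-IL-6 paws. An unadjusted p under 0.05 was seen for 1879 genes, and the median difference over all genes was 0.03. The differences were small: their sizes ran from 0.13 to 1.90 with a median of 0.24, and 11 exceeded 0.5. For 0 of the 140 genes were the groups free of overlap. For 78 genes every one of the 13 anti-IL-6 libraries fell on the called side of the isotype mean. At least 11 did so for all 140. The same libraries picked these genes, so the counts describe the calls and give them no further support. Outside the clock lists stood 129 calls, 104 higher and 25 lower. Without the libraries of mouse 20 and mouse 2 the calls were 119 higher and 34 lower. With index run as a covariate 20 genes were called, 12 higher and 8 lower, and all 140 kept the sign of their difference at a median size of 0.24. All 20 were among the 140: 10 clock genes, and outside the clock Utp4, Ccdc86, Leo1, Zdhhc18, Lsm12, Nup62, Siah2 and Kti12 (higher) and Atg14 and Rsad1 (lower). Leaving out 1 library at a time gave 51 calls at the least (without anti-IL-6 replicate 9) and 222 at the most (without anti-IL-6 replicate 7).

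**Figure D1:**
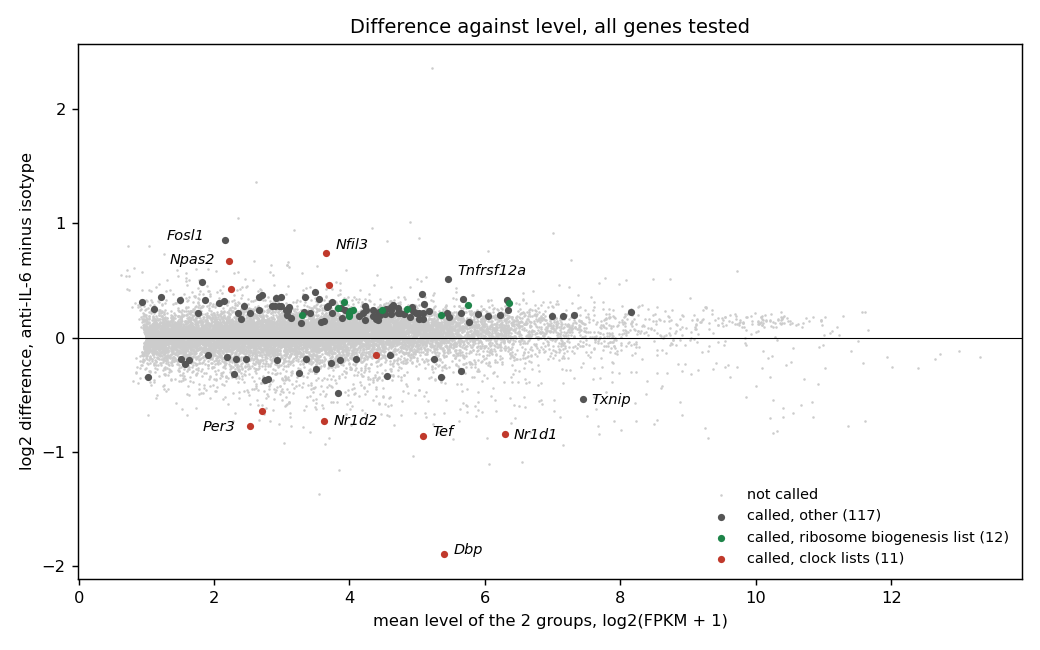
Log2 difference, anti-IL-6 minus isotype, against the mean level of the 2 groups in log2(FPKM + 1), 1 point per gene tested. The largest called differences in both directions belong to genes of the clock lists (11 called) and to Fosl1, and the 12 called ribosome biogenesis genes lie in a narrow band between 0.19 and 0.32.

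Clock genes made up 8 of the 11 called genes whose difference exceeded 0.5 in size. Of 29 genes in 3 clock lists 28 were tested, and 4 were called higher (Arntl, Npas2, Cry1 and Nfil3) and 7 lower (among them Dbp, Tef, Nr1d1, Nr1d2, Per3 and Bhlhe41), where 0.969% of all genes were called. The median size of the difference was 0.26 over the 28 genes and 0.08 over all genes tested. The lists were written with earlier results of these data known, so their counts are a description. Because no hour of sampling is given, a difference in that hour and the treatment cannot be told apart.

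To show the elements through which the clock acts, 6 promoters of called clock genes are printed 5′ to 3′ on the gene's strand, from 250 bases before to 50 after the transcription start given by RefSeq (GRCm38.p6). Capitals mark the E-box CACGTG in Tef, Bhlhe41 and Cry1, the D-box TTATGTAA in Per3, and the core AGGTCA of the ROR element in Nr1d2 and Nfil3, where Nfil3 holds it on the opposite strand and so reads TGACCT.
Tef: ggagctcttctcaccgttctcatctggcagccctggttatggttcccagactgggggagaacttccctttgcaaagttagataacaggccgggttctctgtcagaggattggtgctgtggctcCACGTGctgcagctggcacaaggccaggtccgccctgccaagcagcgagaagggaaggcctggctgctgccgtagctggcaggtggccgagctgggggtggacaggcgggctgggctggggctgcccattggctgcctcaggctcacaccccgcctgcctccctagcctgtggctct
Bhlhe41: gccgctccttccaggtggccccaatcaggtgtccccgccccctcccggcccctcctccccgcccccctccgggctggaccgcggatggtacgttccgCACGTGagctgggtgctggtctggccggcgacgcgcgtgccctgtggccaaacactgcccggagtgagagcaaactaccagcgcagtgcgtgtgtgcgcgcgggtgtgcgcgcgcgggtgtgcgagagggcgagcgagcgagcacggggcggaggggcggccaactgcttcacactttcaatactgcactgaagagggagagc
Cry1: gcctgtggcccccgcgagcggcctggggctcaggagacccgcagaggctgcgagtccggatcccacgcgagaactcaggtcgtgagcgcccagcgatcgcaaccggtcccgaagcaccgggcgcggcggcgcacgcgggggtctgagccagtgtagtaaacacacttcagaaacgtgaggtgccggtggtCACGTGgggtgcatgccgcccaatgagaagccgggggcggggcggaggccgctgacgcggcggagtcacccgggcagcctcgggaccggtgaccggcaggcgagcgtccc
Per3: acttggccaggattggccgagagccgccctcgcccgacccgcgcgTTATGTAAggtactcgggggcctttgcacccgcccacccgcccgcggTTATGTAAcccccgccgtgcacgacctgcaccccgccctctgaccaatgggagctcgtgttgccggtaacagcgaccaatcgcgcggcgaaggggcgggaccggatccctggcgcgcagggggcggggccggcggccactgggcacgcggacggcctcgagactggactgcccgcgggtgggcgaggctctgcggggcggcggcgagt
Nr1d2: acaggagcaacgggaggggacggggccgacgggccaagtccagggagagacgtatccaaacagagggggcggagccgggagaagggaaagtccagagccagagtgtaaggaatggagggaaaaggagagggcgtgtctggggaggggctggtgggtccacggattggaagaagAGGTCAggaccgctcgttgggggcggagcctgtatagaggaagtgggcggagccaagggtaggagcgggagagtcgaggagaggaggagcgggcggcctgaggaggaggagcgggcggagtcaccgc
Nfil3: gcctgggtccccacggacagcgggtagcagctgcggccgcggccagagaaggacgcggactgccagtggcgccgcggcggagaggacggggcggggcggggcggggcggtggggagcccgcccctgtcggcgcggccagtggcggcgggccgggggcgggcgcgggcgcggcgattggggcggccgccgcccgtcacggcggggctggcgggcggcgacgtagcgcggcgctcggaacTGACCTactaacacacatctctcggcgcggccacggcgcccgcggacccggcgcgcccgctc
The windows are chr15:81802423-81802722 for Tef (plus strand), chr6:145865371-145865670 for Bhlhe41, chr10:85185005-85185304 for Cry1, chr4:151044616-151044915 for Per3, chr14:18239057-18239356 for Nr1d2 and chr13:52980990-52981289 for Nfil3 (all minus strand). The first base of the element, counted from the start site, lay at -127 in Tef, -153 in Bhlhe41, -60 in Cry1, -77 in Nr1d2 and -12 in Nfil3, and Per3 held the D-box at -205 and -158. Both strands were searched, and the D-box search also took TTACGTAA. Among 32851 promoters of the same length, 7.15% held the E-box, 1.06% a D-box and 16.3% the ROR core. The second promoter of Tef also held an E-box (at -138) and the second promoter of Arntl a ROR core (at 32), while the windows of Dbp, Npas2 and Nr1d1 held none of these letters. A match describes the letters of the window and not binding in these paws.

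Among the activators, Npas2, the partner of Arntl that can stand in for Clock, had a lowest, median and highest level of 2.70, 4.83 and 5.70 FPKM in anti-IL-6 paws and 0.933, 2.86 and 4.31 in isotype paws. The difference was 0.67 ± 0.126 (SE, limma adjusted p = 0.00329), with all 13 anti-IL-6 libraries above the isotype mean. The lowest anti-IL-6 value was that of mouse 20, and anti-IL-6 replicates 2, 10 and 12 lay below the highest isotype library. Arntl, on chromosome 7 (113207465 to 113314126, GRCm38), ran over 8.84, 14.8 and 18.95 FPKM against 7.03, 9.83 and 13.3 (difference 0.46 ± 0.112, adjusted p = 0.0251). Arntl was called in 21 of 26 fits that each left out a library, with an adjusted p of up to 0.0658. Clock, the usual partner of Arntl, was at 4.23, 5.96 and 8.19 against 4.07, 5.50 and 7.398 FPKM and was not called (0.16 ± 0.091, adjusted p = 0.453).

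The repressors split. Nr1d1, on chromosome 11 (98767932 to 98775333), had 22.3, 65.3 and 103.9 FPKM in anti-IL-6 against 58.6, 104.5 and 124 in isotype paws, lower by a difference of -0.84 ± 0.169 (adjusted p = 0.00673). Its relative Nr1d2, on chromosome 14, had 4.79, 7.54 and 13.5 against 11.4, 13.9 and 20.5 FPKM (-0.73 ± 0.108, adjusted p = 4.98e-05). In Nr1d2 every anti-IL-6 library lay below the isotype mean, and in Nr1d1 12 of 13 did. Exons of Nr1d1 overlap Thra on the opposite strand, and Thra itself differed by -0.05 (adjusted p = 0.756). Per3, a period gene that the rhythm does not depend on, had 1.39, 3.13 and 5.44 FPKM against 4.14, 6.11 and 11.0 (-0.77 ± 0.117, adjusted p = 6.91e-05). Bhlhe41 (DEC2), which competes at E-boxes, had 2.45, 4.23 and 5.68 against 4.38, 6.42 and 9.95 FPKM (-0.64 ± 0.1198, adjusted p = 0.00329).

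Other repressors rose or were not called. Nfil3 had 8.98, 12.7 and 25.99 FPKM in anti-IL-6 and 4.76, 7.50 and 13.7 in isotype paws, higher by 0.74 ± 0.141 (adjusted p = 0.00329), and every anti-IL-6 library lay above the isotype mean. Cry1, on chromosome 10 (85131700 to 85185064), had 2.91, 4.57 and 6.22 against 2.23, 3.04 and 3.75 FPKM (0.43 ± 0.084, adjusted p = 0.00569). Per1 and Per2, period genes that also respond quickly to hormones and signals, had nearly equal medians, 12.3 and 12.3 FPKM for Per1 and 1.40 and 1.41 for Per2, with differences of -0.04 ± 0.143 and 0.01 ± 0.132 (adjusted p = 0.927 and 0.979). Ciart, a repressor named for its circadian rhythm, had medians of 5.03 and 9.71 FPKM and just missed the threshold (-0.69 ± 0.187, adjusted p = 0.0517).

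Among the called clock genes, an output factor held the widest gap. Dbp had 5.77, 14.5 and 42.8 FPKM in anti-IL-6 paws and 35.6, 64.2 and 117.5 in isotype paws, a difference of -1.90 ± 0.248 (adjusted p = 5.57e-06). Only 2 anti-IL-6 libraries, replicates 2 and 10 at 42.8 and 36.6 FPKM, reached above the lowest isotype library, and the higher of them is the one with mouse number 20. The library labelled anti-TNF with mouse number 2 had 37.2 FPKM of Dbp. Without both libraries the difference was -2.01. Within index runs 2, 4 and 5 it was -1.53, -2.60 and -1.49, each resting on 1 library in 1 of the groups. With index run as a covariate it was -2.25. Dbp shares exons with Sphk2 on the opposite strand, and Sphk2 differed by 0.07 (adjusted p = 0.775). Tef had 14.5, 21.7 and 42.7 against 28.0, 38.9 and 65.02 FPKM (-0.86 ± 0.121, adjusted p = 2.14e-05), with the library of mouse 20 again the highest of its group. Hlf, the third member of the family, was not called (-0.34 ± 0.118, adjusted p = 0.150).

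In all, 17 of the 28 clock genes tested were not called, with differences from -0.83 (Pdk4, a kinase of fuel choice in muscle) to 0.16 (Clock). Clock calls numbered 9 to 12 in the 26 fits that left out a library, 10 with index run as a covariate and 12 without the libraries of mouse 20 and mouse 2. With the clock score as a covariate, which is built from genes of these lists, 0 were called.

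**Figure D2:**
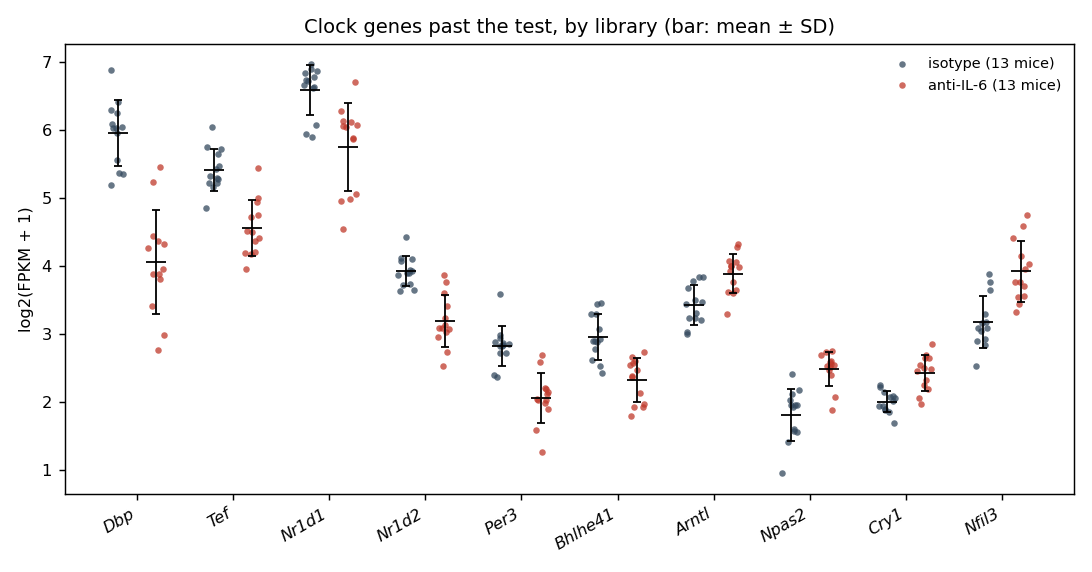
Levels in log2(FPKM + 1) of 10 of the 11 called clock genes, 1 point per mouse, 13 isotype (left of each pair) and 13 anti-IL-6 mice (right), with mean ± SD. Dbp shows the widest gap, Arntl, Npas2, Cry1 and Nfil3 run the other way, and the groups overlap for every gene.

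Across the mice of 1 group, some clock genes followed Dbp and others did not. These 16 relations to Dbp (8 genes in 2 groups, on log2 values) were chosen after results were seen. In the 13 anti-IL-6 mice Tef rose with Dbp (Pearson r = 0.86, permutation p = 0.000230, adjusted p = 0.00299; Spearman rho = 0.83, permutation p = 0.000780), and r was 0.71 without the 2 libraries farthest from the median Dbp. Nfil3 ran against Dbp in the same mice (r = -0.83, permutation p = 0.000430, adjusted p = 0.00299; rho = -0.91, permutation p = 7.00e-05), and r was -0.77 without the 2 farthest. In the 8 anti-IL-6 mice of index run 4 these values were 0.81 for Tef and -0.87 for Nfil3. Among the 13 isotype mice r was 0.84 for Tef (permutation p = 0.000560, rho = 0.83, permutation p = 0.000710, r = 0.75 without the 2 farthest), and no index run held 6 isotype mice. Nfil3 in isotype mice had r = -0.64 (permutation p = 0.0187, adjusted p = 0.0428, -0.81 without the 2 farthest), but its rank correlation was weak (rho = -0.32, permutation p = 0.288). For Npas2 the relation in anti-IL-6 mice (r = -0.69, permutation p = 0.0105, adjusted p = 0.0280; rho = -0.55, permutation p = 0.0552) rested on 2 libraries, since r was -0.04 without them. In isotype mice Npas2 ran against Dbp (r = -0.81, permutation p = 0.000890, adjusted p = 0.00356; rho = -0.78, permutation p = 0.00272), with r = -0.73 without the 2 farthest. Arntl showed no relation that passed, with r = -0.06 in anti-IL-6 (permutation p = 0.857, rho = -0.16, permutation p = 0.592) and -0.45 in isotype mice (permutation p = 0.122, rho = -0.49, permutation p = 0.0907), and r was 0.27 and -0.05 without the 2 farthest.

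Among called genes outside the clock with a mean of at least 2 FPKM, Fosl1, Tnfrsf12a, Gprc5a and Klf16 rose most. Fosl1 (Fra-1), a subunit of the AP-1 transcription factor, had 2.31, 3.73 and 9.43 FPKM in anti-IL-6 paws against 1.08, 1.59 and 4.88 in isotype paws, a difference of 0.85 ± 0.180 (limma adjusted p = 0.00941). All 13 anti-IL-6 libraries lay above the isotype mean, replicates 9, 11 and 13 being the highest at 9.03, 7.95 and 9.43 FPKM, while isotype replicates 4, 7 and 10, at 4.48, 2.97 and 4.88 FPKM, lay above the lowest anti-IL-6 library. Fosl1 was the only called gene of 26 in the AP-1 and immediate early list, where 0.747% of all genes were called higher. Fos, Jun and Egr1, which respond within minutes to signals, differed by -0.01, 0.02 and -0.13. Of the 26 differences 20 were above 0, where 8721 of all 14454 were, and their median was 0.10, against 0.03 over all genes. An unadjusted p under 0.05 was seen for 6 of the 26, against 1879 of all 14454 genes. Within index runs 2, 4 and 5 the Fosl1 difference was 1.08, 1.19 and 0.79, each resting on 1 library in 1 of the groups. With index run as a covariate it was 0.88 (limma adjusted p = 0.142).

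Tnfrsf12a (Fn14), the receptor for the TNF family ligand TWEAK, lies on chromosome 17 (23675445 to 23677468). It had 38.4, 50.8 and 73.5 FPKM against 27.0, 33.6 and 46.3 (0.51 ± 0.095, adjusted p = 0.00329), and all 13 anti-IL-6 libraries exceeded the isotype mean. None of the other 8 tested genes of the TWEAK and noncanonical NF-kB list was called, where 0.969% of all genes were. Gprc5a, an orphan receptor of epithelia induced by retinoic acid, had 1.82, 3.02 and 4.74 against 1.59, 1.78 and 2.64 FPKM (0.49 ± 0.092, adjusted p = 0.00329), although 11 of 13 libraries lay above the isotype mean. Klf16, a zinc finger transcription factor on chromosome 10 (80567124 to 80577321), had 9.47, 11.85 and 14.3 against 6.10, 8.48 and 10.8 FPKM (0.40 ± 0.083, adjusted p = 0.00908). With index run as a covariate Tnfrsf12a, Gprc5a and Klf16 were not called (adjusted p = 0.0703, 0.0567 and 0.268), at differences of 0.51, 0.51 and 0.36. Zyx, a protein of focal adhesions, rose by 0.34 and was the 1 called gene of 23 in the list of SRF targets and actin cytoskeleton. Osgin1, a gene of the oxidative stress response, rose by 0.36 and was the 1 called gene of 13 in the NRF2 list. Zyx and Osgin1 were called in 15 and 12 of the 26 fits that left out a library. With index run as a covariate limma called neither (adjusted p = 0.407 and 0.209). Over all genes 0.747% were called higher, and 1 call is too few to describe a list.

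**Figure D3:**
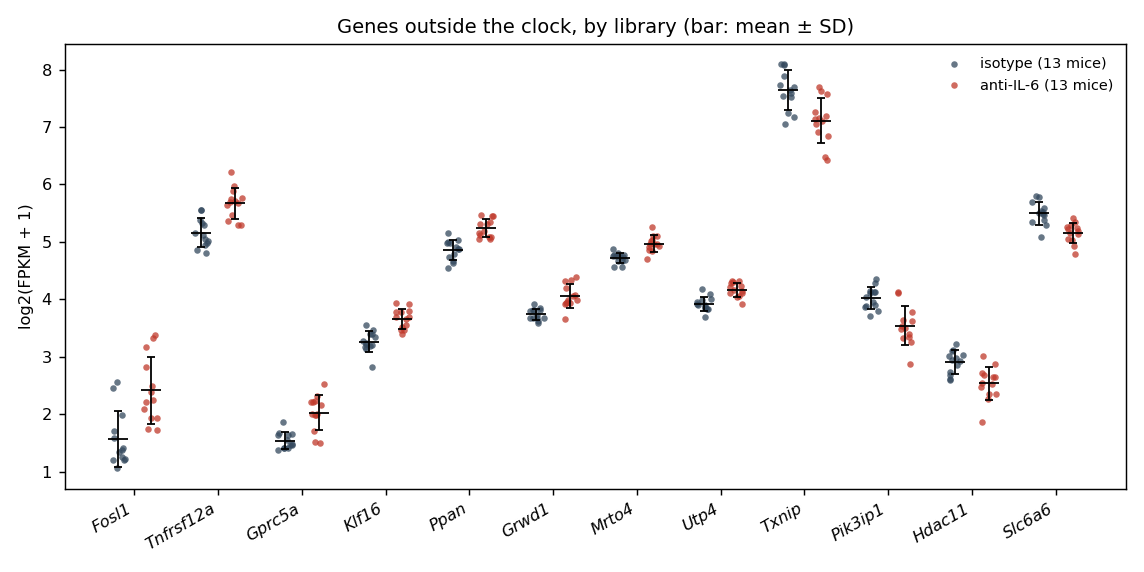
Levels in log2(FPKM + 1) of 12 called genes outside the clock, 1 point per mouse, 13 isotype (left of each pair) and 13 anti-IL-6 mice (right), with mean ± SD. The 8 genes from Fosl1 to Utp4 are higher and the 4 from Txnip to Slc6a6 lower under anti-IL-6, and the ranges of the groups overlap for each.

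Members of the ribosome biogenesis list made up 12 of the 104 higher genes outside the clock. Ribosome biogenesis takes place in the nucleolus, where ribosomal RNA is transcribed, modified by small nucleolar RNA-protein particles, cut and packed with ribosomal proteins. Of 36 factors tested, 12 were called higher (Mrto4, Utp4, Grwd1, Nop56, Bysl, Rrs1, Noc4l, Wdr43, Nop10, Nop16, Fbl and Tsr1) and 0 lower, where 0.747% of all genes were called higher. Of the 36, 28 had an unadjusted p under 0.05, and 35 differences were above 0, against 1879 and 8721 of all 14454 genes. The median difference was 0.19, against 0.03 over all genes, and the factors Nop2, Nolc1, Gar1 and Rrp1b lay just outside the threshold with adjusted p from 0.0558 to 0.0679. The list was written with earlier results known, so the count is a description.

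By step, Utp4, part of the first complex to bind nascent ribosomal RNA, had 14.1, 16.9 and 18.98 FPKM in anti-IL-6 paws against 11.9, 13.97 and 17.1 in isotype paws (0.25 ± 0.052, adjusted p = 0.00941). Utp4 lies on chromosome 8 (106893636 to 106923088) and was the 1 gene of the 12 still called with index run as a covariate (0.33, adjusted p = 0.00503). Nop56 and Fbl, the scaffold and the methyltransferase of box C/D particles, were higher by 0.29 ± 0.063 and 0.31 ± 0.080 (adjusted p = 0.0140 and 0.0424). Nop10, a small protein of the box H/ACA particles that make pseudouridine, was higher by 0.20 (adjusted p = 0.0327).

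For the large subunit, Mrto4, a nucleolar factor related to the ribosomal stalk protein and placed on chromosome 4 (139347435 to 139352576), had 24.98, 30.3 and 37.2 FPKM against 22.6, 25.95 and 28.4 (0.25 ± 0.052, adjusted p = 0.00908). Grwd1, a chaperone of a ribosomal protein of the large subunit, had 11.7, 14.9 and 19.9 against 10.95, 12.2 and 14.1 FPKM (0.32 ± 0.067, adjusted p = 0.00970). In Utp4, Mrto4 and Grwd1 12 of 13 anti-IL-6 libraries lay above the isotype mean, and each was called in all 26 fits that left out a library. Ppan, a large-subunit factor that the list does not hold, had 32.1, 35.5 and 43.5 against 22.4, 28.5 and 34.6 FPKM, with all 13 anti-IL-6 libraries above the isotype mean (0.38 ± 0.083, adjusted p = 0.0133). Exons of Ppan contain small nucleolar RNAs, and fragments of Ppan and of these RNAs cannot be told apart.

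The mean log2(FPKM + 1) over the 36 factors was 4.24, 4.38 and 4.58 (lowest, median and highest) in anti-IL-6 and 4.06, 4.17 and 4.36 in isotype libraries. In the other groups the medians were 4.27 for anti-TNF, 4.23 for the combination and 4.21 without CIA. The number called leaned on single mice: among the leave-one-out fits it was lowest, at 4, when anti-IL-6 replicate 9 was dropped. Dropping anti-IL-6 replicate 11 or 13, or isotype replicate 1 or 6, gave 6, dropping isotype replicate 2 or 8 gave 7, and dropping the 2 least correlated libraries together gave 4. With index run as a covariate it was 1, while the median difference of the list was 0.21. It was 5 with no filter on low values, 19 when the compared groups were fitted alone, 21 with library weights and 0 with the clock score, which includes called genes, as a covariate (median difference 0.15).

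Other called genes that handle RNA were noticed after their values were seen and are given as such. Ccdc86, a nucleolar protein, had the smallest p among the higher genes, at 6.87, 7.55 and 9.85 FPKM against 5.68, 6.10 and 7.10 (0.28 ± 0.046, limma adjusted p = 0.000308). Every anti-IL-6 library lay above the isotype mean, and Ccdc86 was still called with index run as a covariate (adjusted p = 0.00744). Nle1, Emg1, Bud23, Heatr1, Urb1, Tbl3 and Nol9, which also act in ribosome assembly, were higher by 0.19 to 0.27. Snrpb, Snrpc, Snrpa1, Usp39 and Phf5a, parts of the spliceosome, were higher by 0.17 to 0.23. Elp5, Kti12, Ctu2 and Trmt61a, which modify transfer RNA, were higher by 0.21 to 0.35. All were picked from the called genes, and genes of the same roles that were not called were not counted.

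Of 26 genes in the list of tRNA synthetases and ATF4 targets 2 were called, both higher, where 0.747% of all genes were called higher. Atf4, the transcription factor of the amino acid and stress response, had 153.5, 171 and 181 FPKM against 131, 145 and 177 (0.20 ± 0.046, adjusted p = 0.0209). Shmt2, a mitochondrial enzyme of folate metabolism, was higher by 0.23 (adjusted p = 0.0361). Of 30 cell cycle genes 0 were called by limma, where 0.969% of all genes were. The unadjusted p was under 0.05 for 16 of them, against 1879 of all 14454 genes. All 30 differences were above 0, against 8721 of all 14454, and their median was 0.17. These counts are a description. Outside that list, Pole, the catalytic subunit of a replicative DNA polymerase, and Asf1b, a histone chaperone of dividing cells, were called higher by 0.37 and 0.36, but in only 8 and 11 of the 26 fits that left out a library.

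Among called genes outside the clock with a mean of at least 2 FPKM, Txnip, Pik3ip1, Hdac11 and Slc6a6 fell most. Txnip, which inhibits thioredoxin and glucose uptake, lies on chromosome 3 (96557957 to 96561883). It had 85.1, 139.5 and 207 FPKM in anti-IL-6 against 131.5, 199 and 272 in isotype paws (-0.53 ± 0.138, adjusted p = 0.0404), and 10 of the 26 leave-one-out fits called it. Pik3ip1, an inhibitor of phosphoinositide 3-kinase on chromosome 11 (3330401 to 3342971), had 6.34, 10.4 and 16.4 against 12.1, 15.6 and 19.4 FPKM (-0.49 ± 0.117, adjusted p = 0.0245). Hdac11, a histone deacetylase that removes fatty acyl groups, had 2.63, 4.84 and 7.05 against 5.07, 6.66 and 8.38 FPKM (-0.37 ± 0.082, adjusted p = 0.0147). Slc6a6, the taurine transporter, had 26.7, 35.5 and 41.9 against 33.1, 44.1 and 54.8 FPKM (-0.34 ± 0.076, adjusted p = 0.0156). All 13 anti-IL-6 libraries lay below the isotype mean for Slc6a6, 12 for Txnip and Hdac11 and 11 for Pik3ip1. With index run as a covariate none of the 4 was called (adjusted p = 0.399, 0.279, 0.160 and 0.227 for Txnip, Pik3ip1, Hdac11 and Slc6a6), at differences of -0.49, -0.50, -0.40 and -0.35.

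Smaller falls were seen for Cited2, a co-regulator that competes with hypoxia factors (-0.34), Nudt7, a peroxisomal coenzyme A hydrolase (-0.31), Sord, sorbitol dehydrogenase (-0.27), and Cipc, a protein that binds and inhibits Clock and is not in the clock lists (-0.22). Their adjusted p values ranged from 0.0245 to 0.0486. The 26 fits that left out a library called Cited2 8 times, Nudt7 and Sord 22 times and Cipc 23 times. With index run as a covariate limma called none of them (adjusted p = 0.699, 0.254, 0.331 and 0.331 for Cited2, Nudt7, Sord and Cipc). An E-box lay in the promoter of Cited2 and in 1 of 2 promoters of Cipc, at -153 and -17 from the start, and also in those of the higher genes Grwd1, Utp4 and Trmt61a, at 35, 16 and 26. Rsad1, Abhd18, Zfp93 and Calcoco1 were lower by 0.20 to 0.31 in size. Atg14, a subunit of the lipid kinase that starts autophagosomes, was picked out after its values were seen. It differed by -0.19 (adjusted p = 0.00329), with all 13 anti-IL-6 libraries below the isotype mean.

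The pathway that the antibody targets showed 0 called genes, where 0.969% of all genes were called. Il6 itself ranged over 0.142, 1.98 and 15.8 FPKM in anti-IL-6 and 0.0239, 0.970 and 8.24 in isotype paws (0.59 ± 0.412, adjusted p = 0.571); the range within each group was far wider than the difference between the groups. Socs3 had 11.97, 29.2 and 128 FPKM against 9.56, 27.4 and 47.3 (0.53 ± 0.307, adjusted p = 0.478), and Stat3 had 28.9, 37.99 and 66.7 against 26.0, 36.3 and 50.3 (0.13 ± 0.116, adjusted p = 0.666). Of 15 IL-6 family ligands and receptors tested 13 differences were above 0, where 8721 of all 14454 were. Their median was 0.15, and none had an unadjusted p under 0.05. The list holds Osm, Lif and Il11, which signal through Il6st as IL-6 does, at 0.41, 0.18 and 0.15. Of 22 STAT3 targets and acute phase genes 2 had an unadjusted p under 0.05, with a median difference of 0.19. Saa3, an acute phase protein made in inflamed tissue, ranged from 3.85 to 1401 FPKM in anti-IL-6 and from 0.621 to 335 in isotype paws (0.92 ± 0.990, adjusted p = 0.735). Of 22 genes of JAK-STAT signalling, 0 were called by limma and 0 had an unadjusted p under 0.05. For these genes the standard errors leave room for differences of either sign, so a lack of calls does not show equal levels.

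The inflammatory and tissue lists given here had 0 calls, where 0.969% of all genes were called. Their values stand beside the results above because a bulk paw cannot separate fewer cells of a type from less RNA per cell. Over all genes tested 8721 differences were above 0 and 5733 below. Median differences were 0.36 over 15 neutrophil markers, 0.22 over 20 macrophage markers (all 20 above 0), 0.32 over 12 osteoclast markers (all 12 above 0), -0.10 over 22 interferon-induced genes and -0.07 over 24 genes of oxidative phosphorylation (23 below 0). Differences were below 0 for all 20 skeletal muscle markers, with a median of -0.68 and 0 called. Their summed level ran over 1956, 12084 and 38863 FPKM in anti-IL-6 and 3109, 21730 and 37926 in isotype libraries, so the groups overlapped almost wholly. Differences were also below 0 for all 6 tested erythroid markers, with a median of -0.66, and for all 11 tested adipocyte markers, with a median of -0.21. Erythroid markers summed to 148.5, 235 and 2389 FPKM in anti-IL-6 against 144, 479 and 4638 in isotype libraries, and adipocyte markers to 228, 402 and 909 against 400.5, 542 and 696. The part of these cell types in the results was not tested. Neutrophil markers summed to 88.5, 703 and 2775 FPKM against 62.4, 467 and 1710. Within index runs 2, 4 and 5 the median differences were -0.07, -1.67 and 0.58 for neutrophil markers. They were -0.02, 0.51 and 0.60 for macrophage and -0.58, 0.17 and 0.83 for osteoclast markers. Muscle markers had 0.08, -1.69 and -0.93, erythroid markers 0.09, -3.63 and -0.43, and adipocyte markers -0.19, -0.58 and 0.13. Each of these values rests on 1 library in 1 of the groups. No defining marker of these lists was at 0 in all 26 libraries. With muscle and epidermal scores as covariates 262 genes were called higher and 144 lower, among them all 140 genes of the main fit. The share higher was 64.5%, against 77.1% without the scores. Clock calls were then 12 and ribosome calls 17. With the neutrophil score as a covariate 135 of the 140 genes stayed called, and clock and ribosome calls were 12 and 11.

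**Figure D4:**
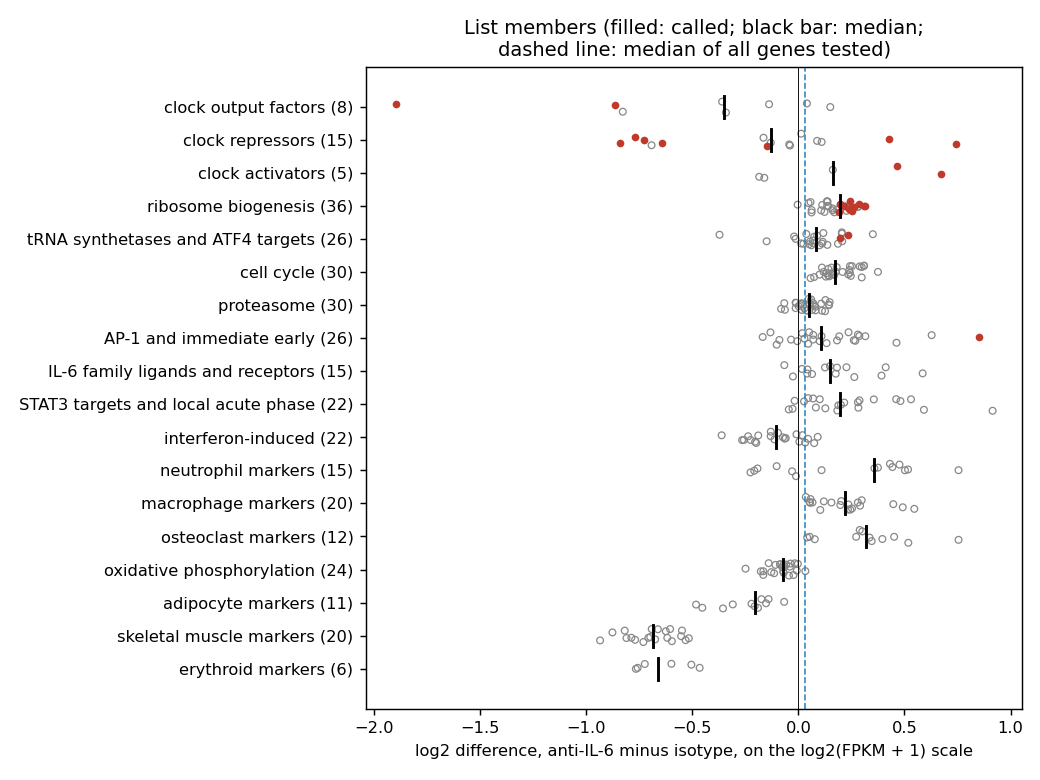
Log2 differences, anti-IL-6 minus isotype, of the tested members of 18 gene lists (number in brackets), 1 point per gene, filled where called, with the median of the list as a black bar and the median of all genes tested, 0.03, as a dashed line. Calls fall mainly in the clock lists and the ribosome biogenesis list, and all 20 muscle markers lie below 0 with none called.

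Levels in the other groups place the changes without being a test of them, since the comparisons share control libraries. Mean Dbp was 102.5 ± 34.3 FPKM (SD, n = 4) without CIA, and 64.4 ± 22.1 under isotype, 60.5 ± 28.6 in the combination, 36.5 ± 15.4 under anti-TNF and 18.0 ± 10.7 under anti-IL-6 (n = 13 each). Fosl1 had 1.63 ± 0.369 FPKM without CIA, 2.14 ± 1.24 under isotype, 2.11 ± 0.999 in the combination, 2.10 ± 0.807 under anti-TNF and 4.79 ± 2.52 under anti-IL-6. Mrto4 had 25.5 ± 3.45, 25.4 ± 1.63, 27.4 ± 2.89, 27.9 ± 2.31 and 30.5 ± 3.08 FPKM in the same order. For Tnfrsf12a, Gprc5a, Klf16 and Cry1 the isotype mean was the lowest of the 5 groups. The same held for the higher genes Mrto4, Ppan, Grwd1, Utp4, Trmt61a, Pole, Asf1b, Atf4 and Shmt2. It did not hold for the higher genes Fosl1, Zyx, Osgin1, Arntl, Npas2 and Nfil3. In the order of groups used for Fosl1, Tnfrsf12a had 39.8 ± 8.03, 35.2 ± 6.41, 39.8 ± 7.05, 41.4 ± 4.86 and 50.8 ± 9.93 FPKM. Gprc5a had 2.60 ± 0.507, 1.92 ± 0.305, 2.55 ± 0.629, 2.52 ± 0.545 and 3.15 ± 0.842. Means without CIA, under isotype and under anti-IL-6 were 9.40, 8.68 and 11.75 for Klf16 and 4.13, 3.03 and 4.47 for Cry1.

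The combination mice had received the same anti-IL-6 dose together with anti-TNF, and they were compared directly with anti-IL-6 alone. Of the 140 genes, 13 were called in this comparison (0.0969% of all genes were), 8 in the clock lists and 5 outside. The comparison shares its anti-IL-6 libraries with the one that picked the 140, so the count is a description. Of the clock genes, Dbp, Tef, Nr1d1, Nr1d2, Per3 and Bhlhe41 were higher in the combination, and Npas2 and Nfil3 lower, from 1.73 ± 0.248 for Dbp (limma adjusted p = 4.52e-05) to -0.65 ± 0.141 for Nfil3 (adjusted p = 0.0284). Outside the clock, Fosl1, Rrs1 and Leo1 were lower in the combination by -0.85 ± 0.180, -0.28 ± 0.062 and -0.27 ± 0.049 (limma adjusted p = 0.0257, 0.0375 and 0.00408). Hdac11 and Atg14 were higher by 0.39 ± 0.082 and 0.20 ± 0.035 (limma adjusted p = 0.0257 and 0.00408), and Txnip, at 0.60 ± 0.138, missed the threshold (adjusted p = 0.0624). For Tnfrsf12a, Klf16, Utp4 and Mrto4 the combination minus anti-IL-6 difference was -0.34 ± 0.095, -0.31 ± 0.083, -0.20 ± 0.052 and -0.15 ± 0.052, and none was called (adjusted p = 0.187, 0.177, 0.145 and 0.306). Between anti-IL-6 and anti-TNF the difference was -1.05 ± 0.248 for Dbp, 0.83 ± 0.180 for Fosl1 and 0.20 ± 0.052 for Utp4, none of them called (adjusted p = 0.348, 0.348 and 0.446).

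**Figure D5:**
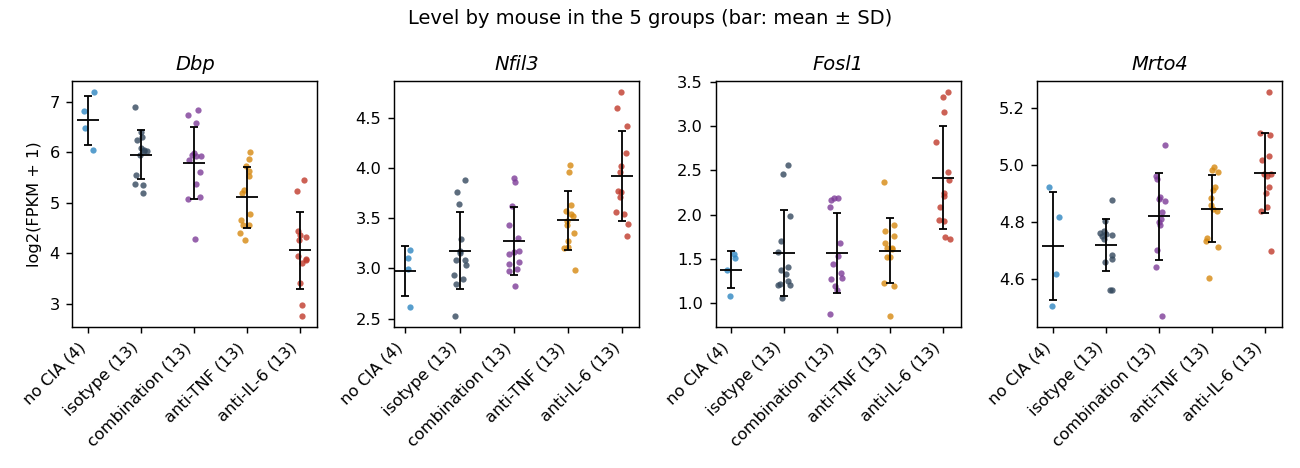
Levels of Dbp, Nfil3, Fosl1 and Mrto4 in log2(FPKM + 1) for each mouse of the 5 groups (number of mice in brackets), with mean ± SD. The anti-IL-6 group has the lowest mean Dbp and the highest mean of the other 3 genes, and its points overlap those of every other group of 13.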

How the data were processed

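RNA of front paws was isolated with a Qiagen RNeasy kit and sequenced as Illumina TruSeq Stranded mRNA libraries, in paired ends on an Illumina NovaSeq, per the labels' protocols. The deposited values are FPKM, 1 column per library, a unit read from the values themselves. DESeq2 is named in the submitters' processing notes without a version. For the aligner, the build, the annotation and whether counting used the strand, nothing was found: not given in the sources used here. Of 53431 features 51027 matched GENCODE M21 (GRCm38) with their version, and coordinates are given for those. Low values step in units of 1 fragment, which gave the depth: 76.9% to 84.7% of low values were whole within 0.05 of a step, too few to rebuild counts.

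Limma 3.58.1 in R 4.3.3 fitted log2(FPKM + 1) of all 56 libraries with 1 mean per group (51 residual degrees of freedom, trended and robust prior) for 14454 genes whose mean FPKM reached 1 in either group. P-values are two-sided and Benjamini-Hochberg adjusted over these genes. The fit was tested on simulated data. Relations used permutation tests with 100000 resamples. Genes, lists and rules were chosen with earlier results of these data known. Named genes are the called clock genes, the 12 highest and 12 lowest other called genes with a mean FPKM of at least 2, Il6, Il6ra, Il6st, Tnf, Stat3 and Socs3, and up to 3 called genes per list; 1 called clock gene is counted but not reported here. Reads of overlapping genes on opposite strands may have been counted together. Alternatives were pseudocounts 0.1 and 10, no filter or a filter at FPKM 5, the 2 groups alone, median-of-ratios scaling, covariates for index run, tissue, neutrophil and clock scores, library weights, and leaving libraries out. Fits without the 2 least correlated libraries were added after seeing the data.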

Additional observations from a re-analysis of the deposited data

How the results depend on the processing

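No paired analysis was possible because replicate numbers were given in accession order and no label ties mice of different groups. The number of called genes, 140, stayed within 1.5 times with pseudocounts 0.1 and 10 (129 and 141), a filter at FPKM 5 (147), the neutrophil score (148) and when mouse 20 and mouse 2 were dropped (153). It moved to 20 once index run was fitted, to 51 when the 2 least correlated libraries were dropped, to 53 with no filter (more genes are then tested), to 238 for the compared groups alone, to 251 after median-of-ratios scaling, to 406 with muscle and epidermis scores and to 604 with library weights. Fitting the clock score, which includes called genes, left 0 calls by limma (1864 at an unadjusted p under 0.05), and 137 of the 140 kept their sign. Leaving out each library in turn gave 51 to 222 calls. Dropping anti-IL-6 replicate 7 gave 222, replicate 9 gave 51, replicate 11 gave 76 and replicate 13 gave 66, while dropping isotype replicate 1 gave 75, replicate 6 gave 68 and replicate 8 gave 73. The cause of these shifts was not tested. Signs turned with the clock score for Npas2 (-0.022), Nfil3 (-0.027), Nr1d1 (0.046), Il6 (-0.55), Il6st (-0.36), Tnf (-0.029), Stat3 (-0.13) and Socs3 (-0.18). Il6ra turned to 0.038 with index run and ran from -0.066 to 0.0092 in the leave-one-out fits. Il6st turned to -0.11 with muscle and epidermis scores, to -0.012 under the neutrophil covariate, and ran from -0.030 to 0.096 in the leave-one-out fits. Stat3 turned to -0.018 with muscle and epidermis scores. No other named gene changed sign under these alternatives. Depth was similar in both groups, but without counts little can be said of genes below 1 FPKM.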

Other observations

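Genes outside the clock were set against Dbp across the 13 mice of each group, on log2 values, among the 16 relations given above. Fosl1 ran against Dbp in anti-IL-6 mice (Pearson r = -0.74, permutation p = 0.00328, adjusted p = 0.0105; Spearman rho = -0.69, permutation p = 0.0111), with r = -0.82 without the 2 libraries farthest from the median Dbp and -0.81 in the 8 mice of index run 4. In isotype mice r was -0.24 (permutation p = 0.428, rho = -0.17, permutation p = 0.579). Tnfrsf12a gave r = -0.62 in anti-IL-6 mice (permutation p = 0.0243, adjusted p = 0.0487; rho = -0.59, permutation p = 0.0381) and -0.41 in isotype mice (permutation p = 0.161, rho = -0.46, permutation p = 0.12). Whether the relations differ between the groups was not tested. For Nop56, a ribosome biogenesis factor, r was -0.52 in anti-IL-6 (permutation p = 0.0666, adjusted p = 0.118; rho = -0.48, permutation p = 0.0973) and 0.33 in isotype mice (permutation p = 0.275, adjusted p = 0.338; rho = 0.24, permutation p = 0.439). For Txnip r was 0.49 in anti-IL-6 (permutation p = 0.0852, adjusted p = 0.136; rho = 0.66, permutation p = 0.0166) and 0.31 in isotype mice (permutation p = 0.301, adjusted p = 0.344; rho = 0.48, permutation p = 0.101).

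Some of the widest differences had large standard errors and were not called. Cyp2e1, an enzyme of alcohol and fat metabolism in liver and fat tissue, had a mean of 8.77 FPKM in anti-IL-6 and 17.9 in isotype paws (-1.16 ± 0.320, limma adjusted p = 0.0592). Mylk4 and Mylk2, myosin light chain kinases of striated muscle, were lower by -1.37 ± 0.563 and -1.04 ± 0.543 (adjusted p = 0.260 and 0.412). Cxcl5, a chemokine that attracts neutrophils, was higher by 1.01 ± 0.874 (adjusted p = 0.658). These genes were chosen after their values were seen.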
